A study of Mus musculus with 3 samples.

Results

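The 41 genes described here carry out mitosis: they start it, build the spindle, hold chromosomes to it, release them at anaphase and divide the cell. They were given as a list of symbols, matched to the mouse gene identifiers of the deposited files, and all 41 were found among the 54532 genes listed. They fall into 7 role groups, with 4 cyclin and CDK1 genes, 7 mitotic kinases and passenger proteins, 9 kinesins, 6 kinetochore and centromere genes, 6 spindle assembly and cytokinesis genes, 3 genes of the anaphase ubiquitin pathway and 6 chromosome structure genes.

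The study sequenced RNA from dural cells of mice inoculated with 4T1-DM cells, where 4T1 is a mouse mammary carcinoma line and the series title speaks of dural metastasis. The treatments are labelled PBS, ZOL and ZOL+Ang2 without further definition, and every group, the PBS controls included, carried the inoculated cells. At day 12 the dorsal dura was dissociated using collagenase VIII with DNase I, and cells lacking CD45 and bearing CD31 and podoplanin (PDPN) were taken. Each group is 1 library made from a pool of 6 mice, so no difference below has a replicate check and none was tested. The sources used here do not give the strain, age and sex of the mice, the doses, or how the cells were sorted.

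Entry into mitosis is driven by CDK1 bound to cyclin A2 or a B-type cyclin, and exit by the anaphase-promoting complex (APC/C), which marks securin and cyclin B for destruction. In between, the Aurora, Polo-like and checkpoint kinases, the kinesin motors and the kinetochore tie each chromosome to spindle microtubules. In adult tissue most endothelial cells are quiescent and hold little of this RNA, whereas dividing cells, tumour cells among them, hold much of it. Many of these genes are switched on together late in the cell cycle through a promoter element called CHR, bound by the MuvB complex, and through CCAAT boxes, bound by NF-Y.

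The libraries differed in depth and content in ways that touch every comparison with PBS. The PBS library held 1675532 reads, recovered from the deposited values, the ZOL library 16586760 and the ZOL+Ang2 library 9204901, so that 3 reads, the floor used here for a gene with 0 reads, stood for 1.61, 0.191 and 0.342 CPM (reads per 1000000 of the scaled library total). Satellite-type gene models took 22.1% of the PBS reads against 1.07% and 3.51% in ZOL and ZOL+Ang2, and mitochondrial genes 12.1% against 1.52% and 1.19%. Olfactory and vomeronasal receptor genes took 2.87% against 0.0508% and 0.150%. Pecam1, which encodes CD31, had 1.08 CPM (2 reads), 475 and 177 in the same order, and Pdpn had 18.8, 67.5 and 171 CPM. Ptprc, which encodes CD45, was present in all 3 libraries at 156, 25.1 and 76.1 CPM. Lyve1 and Prox1, which define the lymphatic endothelium of the series title, had 0 reads in every library apart from 2 Prox1 reads in PBS. Flt4 (VEGFR3), found in lymphatic and some blood endothelium, had 0.538, 70.9 and 23.8 CPM. The list of 7 lymphatic markers that holds these genes summed to 256, 107 and 48.5 CPM. The sum was highest in PBS, though only 2 of the 7 were above 3 reads there, neither of them Lyve1, Prox1 or Flt4. Of the 3 listed markers that averaged 10 CPM or more, 1 was at least 2-fold higher in ZOL than in PBS and 2 at least 2-fold lower.

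The promoters of the genes are shown first, since promoter letters are a feature that the choice of genes did not use. RefSeq (GRCm38.p6) gave windows for 36 of the 41 genes, and the 250 bases before each start were searched on both strands for TTTGAA, the CHR core, and CCAAT. The CHR core was found in 14 of 36 genes (38.9%), against 18.3% of 27025 genes with windows of the same length. CCAAT was found in 26 of 36 (72.2%) against 37.5%, and both motifs in 12 of 36 (33.3%) against 6.45%. TTCGAA, a CHR variant, was in 2 of 36 genes (5.56% against 1.55%), and the E2F-type motif TTTCGCGC was in 1 (2.78% against 0.300%). A match is a description of the letters and not a bound site. The 6 upstream windows below belong to genes on which the results turn. Cdk1 and Top2a carried both motifs and were present in all 3 libraries. Ccnb1 and Ccnb2 are B-type cyclins, of which only Ccnb2 had reads in ZOL+Ang2. Kif11 and Kif22 are kinesins that were nearly or wholly without reads in ZOL+Ang2. Each runs 5′ to 3′ on the gene's strand, with both motifs in capitals on whichever strand they lie. The windows are Cdk1 at chr10:69352913-69353162 (minus strand), Top2a at chr11:99024190-99024439 (minus strand), Ccnb1 at chr13:100786487-100786736 (minus strand), Ccnb2 at chr9:70421555-70421804 (minus strand), Kif11 at chr19:37376132-37376381 (plus strand) and Kif22 at chr7:127042421-127042670 (minus strand).
Cdk1: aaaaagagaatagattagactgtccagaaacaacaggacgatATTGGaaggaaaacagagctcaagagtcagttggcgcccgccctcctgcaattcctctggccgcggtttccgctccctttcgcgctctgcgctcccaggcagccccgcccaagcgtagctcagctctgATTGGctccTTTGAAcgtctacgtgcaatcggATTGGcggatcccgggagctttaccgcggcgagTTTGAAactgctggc
Top2a: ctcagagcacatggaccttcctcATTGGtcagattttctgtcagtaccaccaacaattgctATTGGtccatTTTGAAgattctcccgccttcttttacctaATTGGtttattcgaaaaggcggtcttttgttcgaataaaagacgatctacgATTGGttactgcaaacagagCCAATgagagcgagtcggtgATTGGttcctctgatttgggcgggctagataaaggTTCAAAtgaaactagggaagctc
Ccnb1: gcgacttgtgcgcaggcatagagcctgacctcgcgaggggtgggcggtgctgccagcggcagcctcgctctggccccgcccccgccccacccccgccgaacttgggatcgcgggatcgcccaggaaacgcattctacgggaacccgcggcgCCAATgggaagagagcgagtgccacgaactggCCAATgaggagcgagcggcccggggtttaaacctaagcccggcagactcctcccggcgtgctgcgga
Ccnb2: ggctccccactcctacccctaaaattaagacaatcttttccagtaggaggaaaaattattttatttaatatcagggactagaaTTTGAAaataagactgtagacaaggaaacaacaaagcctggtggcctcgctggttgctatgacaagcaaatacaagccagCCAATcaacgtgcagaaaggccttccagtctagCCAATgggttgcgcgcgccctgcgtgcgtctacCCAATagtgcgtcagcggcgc
Kif11: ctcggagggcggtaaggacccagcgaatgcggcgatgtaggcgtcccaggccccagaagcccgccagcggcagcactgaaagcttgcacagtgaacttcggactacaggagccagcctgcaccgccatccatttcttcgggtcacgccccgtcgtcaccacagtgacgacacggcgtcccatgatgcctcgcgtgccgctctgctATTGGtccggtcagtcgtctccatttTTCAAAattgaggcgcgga
Kif22: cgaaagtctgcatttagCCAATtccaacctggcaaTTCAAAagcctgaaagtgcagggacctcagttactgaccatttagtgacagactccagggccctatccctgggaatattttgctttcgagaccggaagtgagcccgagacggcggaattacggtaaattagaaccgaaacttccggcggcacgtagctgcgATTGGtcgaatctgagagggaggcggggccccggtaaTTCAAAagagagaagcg
Top2a held 6 CCAAT boxes, the outermost beginning 227 bases before the start and the innermost 58, and a CHR core beginning 23 bases before it. In Cdk1 the nearest CHR core began 15 bases before the start, in Kif22 17 bases and in Kif11 19 bases. The Ccnb1 window held 2 CCAAT boxes and no TTTGAA, and the Ccnb2 window held 3 CCAAT boxes with its TTTGAA farther out, 167 bases before the start. Both a gene within 2-fold of its ZOL level in ZOL+Ang2 (Cdk1) and genes that had almost no reads there (Kif11, Kif22) thus carried the 2 motifs.

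As a set, mitotic RNA was scarce in PBS, most abundant in ZOL and intermediate in ZOL+Ang2. Their sum was 610 CPM for PBS, 4961 for ZOL and 3321 for ZOL+Ang2, or 0.0677%, 0.470% and 0.316% of reads. In PBS 27 of the 41 had any read and 6 genes gave 74.5% of the set's reads, whereas in ZOL all 41 had reads and in ZOL+Ang2 36 did. The median gene stood at 2.69, 86.3 and 67.0 CPM. In such bulk samples fewer dividing cells and less mitotic RNA per cell cannot be told apart.

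**Figure D1:**
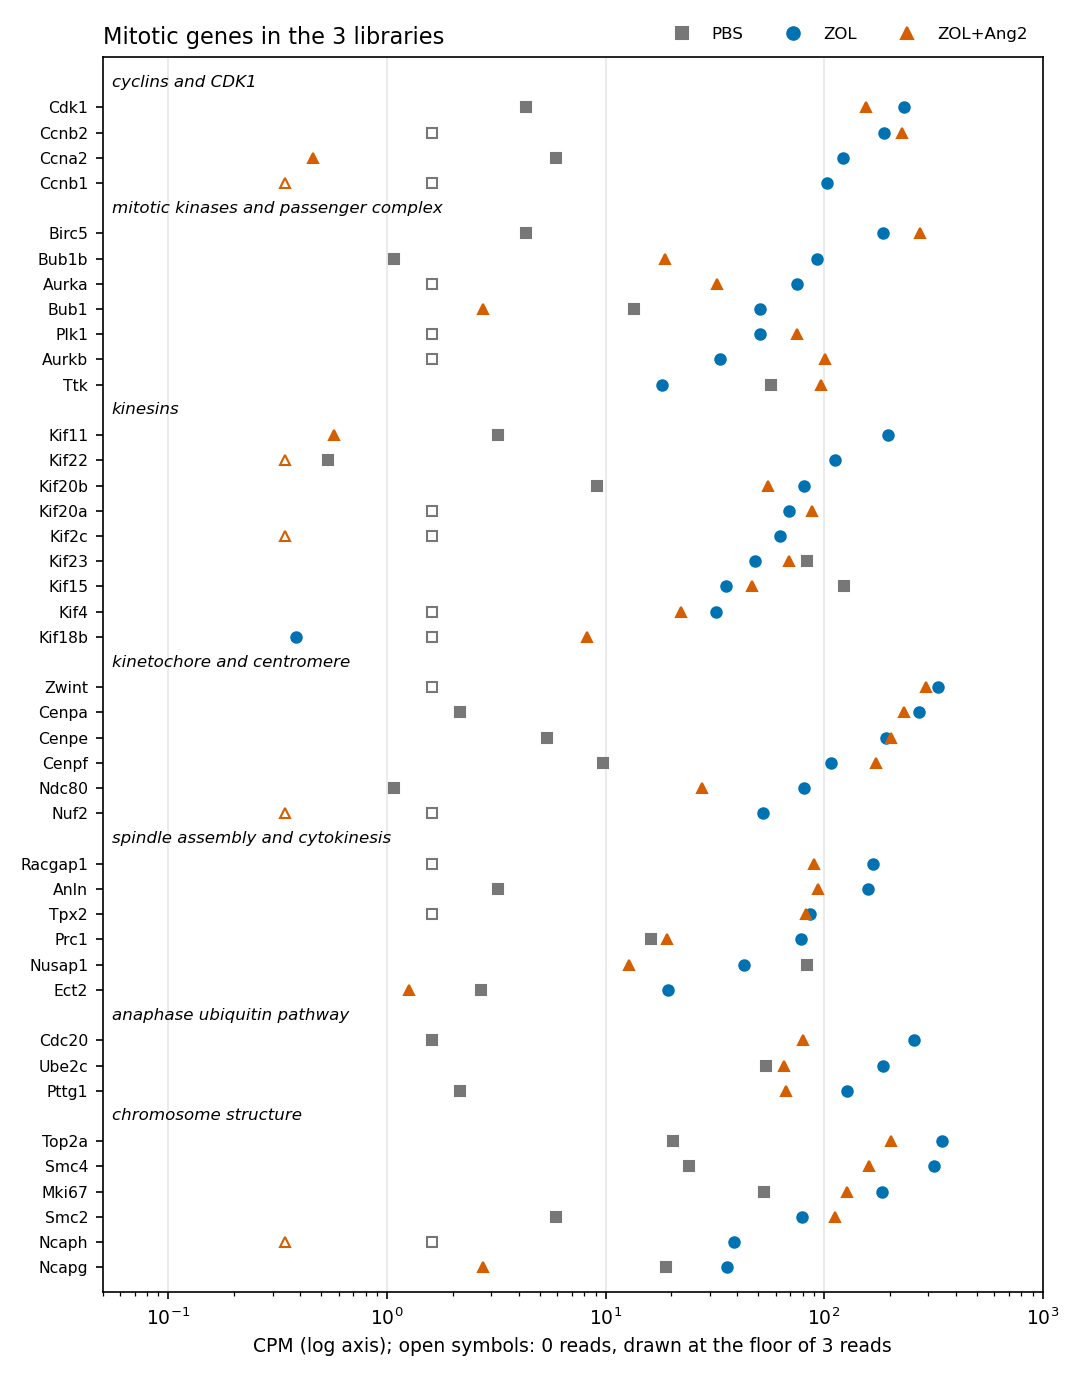
Level of each of the 41 mitotic genes in the PBS, ZOL and ZOL+Ang2 libraries, in CPM on a log axis, grouped by role, with 1 symbol per library and no error bars since each group is 1 library. Open symbols mark genes with 0 reads, drawn at the floor of 3 reads. Most squares (PBS) lie far left of the circles (ZOL), while triangles (ZOL+Ang2) lie close to the circles except for a set at or near the floor that includes Ccnb1, Ccna2, Kif11, Kif22, Kif2c, Nuf2 and Ncaph.

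Against PBS, ZOL held more of most of the genes. Of the 41 genes, 39 averaged 10 CPM or more across libraries, the level required of all 10942 genes compared, and Kif18b and Ect2 did not. A gene that passes on its ZOL level alone has to differ, so the counts describe and support nothing further. Of those 39, 34 were at least 2-fold higher in ZOL, where 49.2% of all genes compared were, and 2 (Kif15 and Ttk) were at least 2-fold lower, where 29.4% of all genes were. The median difference was 3.76 on the scale of log2(CPM + 5), against 0.94 for all genes, 2.82 above it. Over all 41 genes it was 3.54 on that scale, and 4.98 as a plain log2 ratio of CPM with genes at 0 reads set to the floor. On log2(CPM + 5), a difference of at least 10-fold was seen for 24 of the 39, against 16.9% of all genes. At 0 reads in PBS were 13 of the 38 mitotic genes with at least 30 CPM in ZOL, against 23.4% of 6031 genes, and at a cut of 10 CPM 13 of 40 (32.5%) against 30.8%. The all-gene figures rest on the scaling: higher genes were 62.6% of all those past 2-fold under TMM scaling but 47.3% under median-of-ratios scaling, which moves the median of all genes to -0.17. Under that scaling the mitotic genes lay 3.37 above the median of all genes.

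Against ZOL, ZOL+Ang2 held somewhat less, and unevenly. At least 2-fold lower were 16 of the 39 genes, where 24.8% of all genes compared were, 2 (Ttk and Aurkb) were at least 2-fold higher, where 16.2% of all genes were, and 21 lay within 2-fold. The median was -0.77 against -0.02 for all genes. On the same scale of log2(CPM + 5), at least 10-fold lower were 6 genes (Kif11, Kif22, Ccna2, Ccnb1, Kif2c and Nuf2), against 3.86% of all genes. By ratio of CPM without the added 5, Ncaph, Bub1, Ncapg and Ect2 were also past 10-fold, with values given below. The count of lower genes depends on the level required. With a mean of at least 50 CPM, 22 of the genes are compared and 3 are at least 2-fold lower. Among genes of at least 100 CPM in ZOL, 4 of 19 mitotic genes were at least 10-fold lower in ZOL+Ang2 on that scale, against 4.91% of 2099 genes. At 0 reads in ZOL+Ang2 were 5 of the 38 mitotic genes with at least 30 CPM in ZOL (13.2%), against 7.31% of 6031 genes, and at a cut of 10 CPM 12.5% against 14.1%. In the other direction none of 25 mitotic genes with at least 30 CPM in ZOL+Ang2 was at 0 reads in ZOL, against 2.62% of all such genes.

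**Figure D2:**
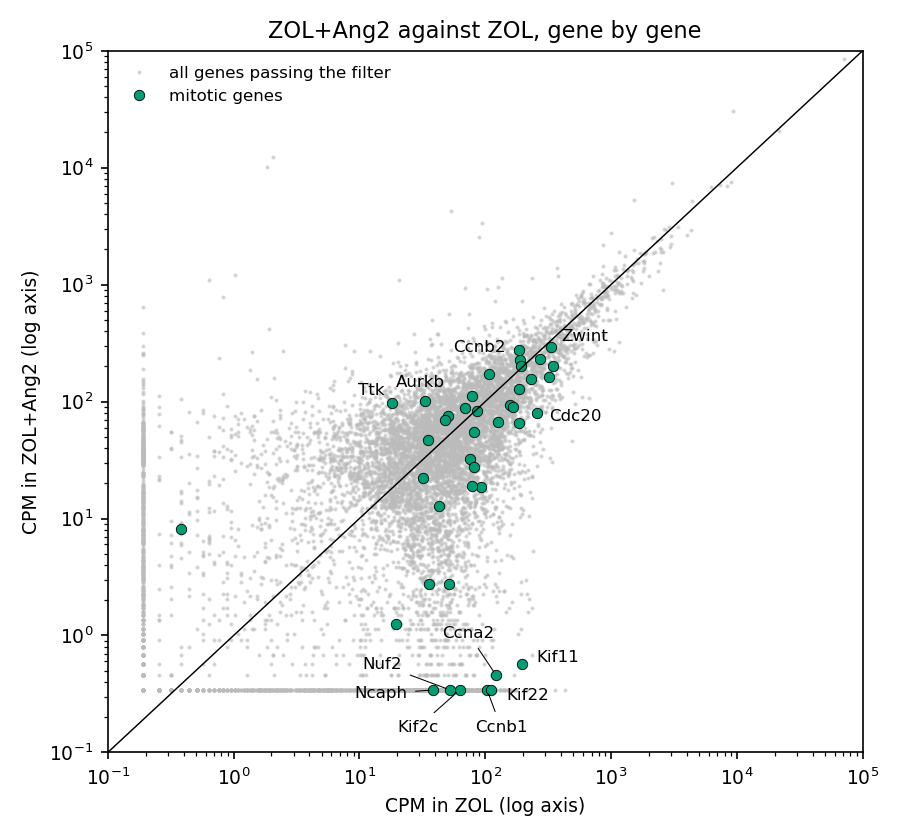
CPM in ZOL+Ang2 against CPM in ZOL on log axes for all genes passing the filter (grey) and the 41 mitotic genes (green), with genes at 0 reads drawn at the floor of 3 reads and the line of equal levels. Most mitotic genes lie along the line among the better expressed genes, Ttk and Aurkb lie above it, and Ccnb1, Kif22, Kif2c, Nuf2 and Ncaph lie on the floor.

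ZOL+Ang2 against PBS, which shares a library with each comparison above, gave 24 of the 39 genes at least 2-fold higher, where 44.2% of all genes were. It gave 5 at least 2-fold lower (Nusap1, Ncapg, Kif15, Bub1 and Ccna2), where 33.1% of all genes were. The median was 2.45 against 0.48 for all genes.

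**Figure D3:**
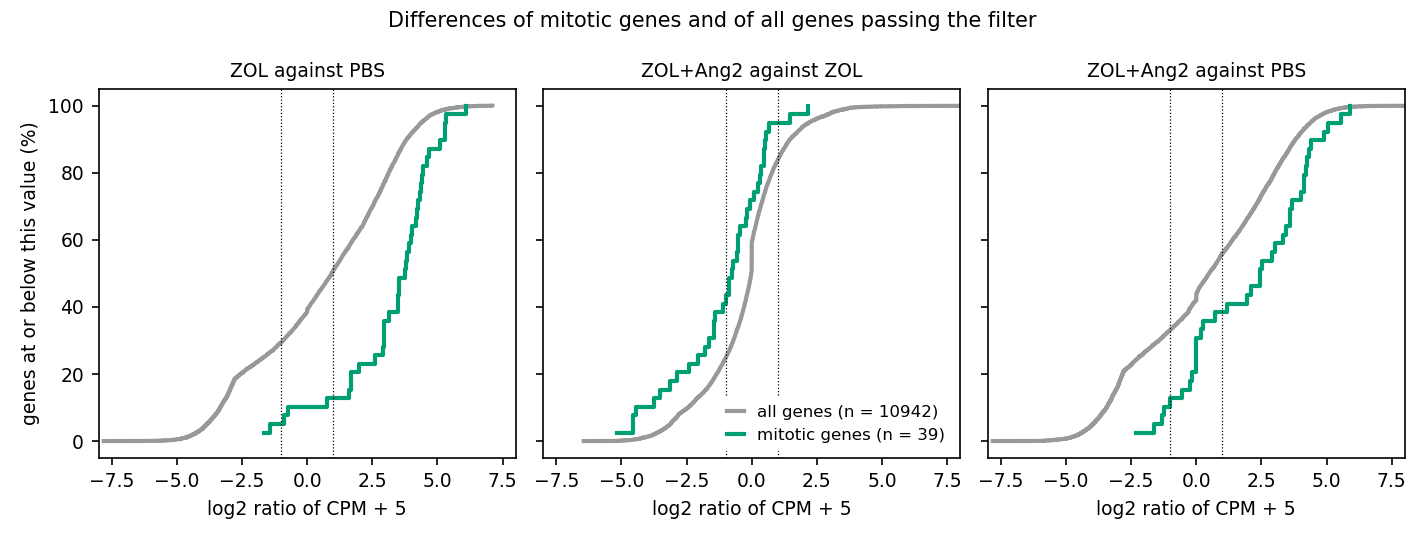
Cumulative share (%) of the 39 mitotic genes passing the filter (green) and of all 10942 genes (grey) at or below each log2 ratio of CPM + 5, for the 3 comparisons; dotted lines mark 2-fold. The green curve lies right of the grey one in both comparisons with PBS and left of it for ZOL+Ang2 against ZOL, where its medians are -0.77 and -0.02.

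Among the genes that start mitosis, the cyclins and their kinase came to 10.2 CPM for PBS, 646 for ZOL and 384 for ZOL+Ang2. Cdk1, the kinase itself, had 4.31, 231 and 156 CPM, a level 53.7-fold higher in ZOL than in PBS (exact 95% binomial interval 27.2 to 124; intervals cover counting error only) and 1.48-fold lower in ZOL+Ang2 than in ZOL (1.39 to 1.57). Ccnb2, cyclin B2, was at 0 reads in PBS and at 189 and 227 CPM in ZOL and ZOL+Ang2. The other B-type cyclin of the set, Ccnb1 (cyclin B1), was at 0 reads in PBS and at 104 CPM (1626 reads) in ZOL. It was at 0 reads in ZOL+Ang2, at least 303-fold lower there than in ZOL. The 2 B-type cyclins were thus both present in ZOL and only Ccnb2 had reads in ZOL+Ang2. Ccna2, cyclin A2, had 11, 1919 and 4 reads and was 268-fold lower in ZOL+Ang2 than in ZOL (105 to 985). Per length, Ccnb2 stood at 81.7 RPKM in ZOL, behind only Cdc20 among the 41, and first in ZOL+Ang2 at 111 RPKM. The near-identical Ccnb1 copies, led by Ccnb1-ps at 99.2% identity, had no reads in PBS and ZOL+Ang2 and at most 19 in ZOL. The neighbouring gene Exosc9, whose exons share 510 bases with Ccna2 on the other strand, had 0, 566 and 0 reads, and the sources used here do not say whether counting used strand.

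The mitotic kinases and passenger proteins were the role group whose sum was not lower in ZOL+Ang2, at 75.9, 509 and 601 CPM. Birc5, survivin of the chromosomal passenger complex, had 4.31, 187 and 275 CPM and was 43.3-fold higher in ZOL than in PBS (22.0 to 100.5). Its kinase partner Aurkb, aurora B, had 0, 33.5 and 101 CPM and was 3.00-fold higher in ZOL+Ang2 than in ZOL (2.69 to 3.35). Aurka, the spindle pole kinase aurora A, went the other way, at 0, 75.1 and 32.3 CPM. On the length-corrected scale Aurka was therefore 2.61 times Aurkb in ZOL, and 0.373 times it in ZOL+Ang2. Plk1, Polo-like kinase 1, stood at 0, 50.9 and 75.0 CPM. The checkpoint kinases differed from each other. Ttk (MPS1), which starts checkpoint signalling at kinetochores, had 57.0 CPM (106 reads) in PBS. It was lowest in ZOL at 18.1 and highest in ZOL+Ang2 at 97.2, and so 5.37-fold higher in ZOL+Ang2 than in ZOL (4.69 to 6.16). Bub1 had 13.5, 51.2 and 2.74 CPM and Bub1b (BUBR1) 1.08, 93.2 and 18.7, both lower in ZOL+Ang2 than in ZOL, by 18.7-fold (12.5 to 29.3) and 4.98-fold (4.24 to 5.89).

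**Figure D4:**
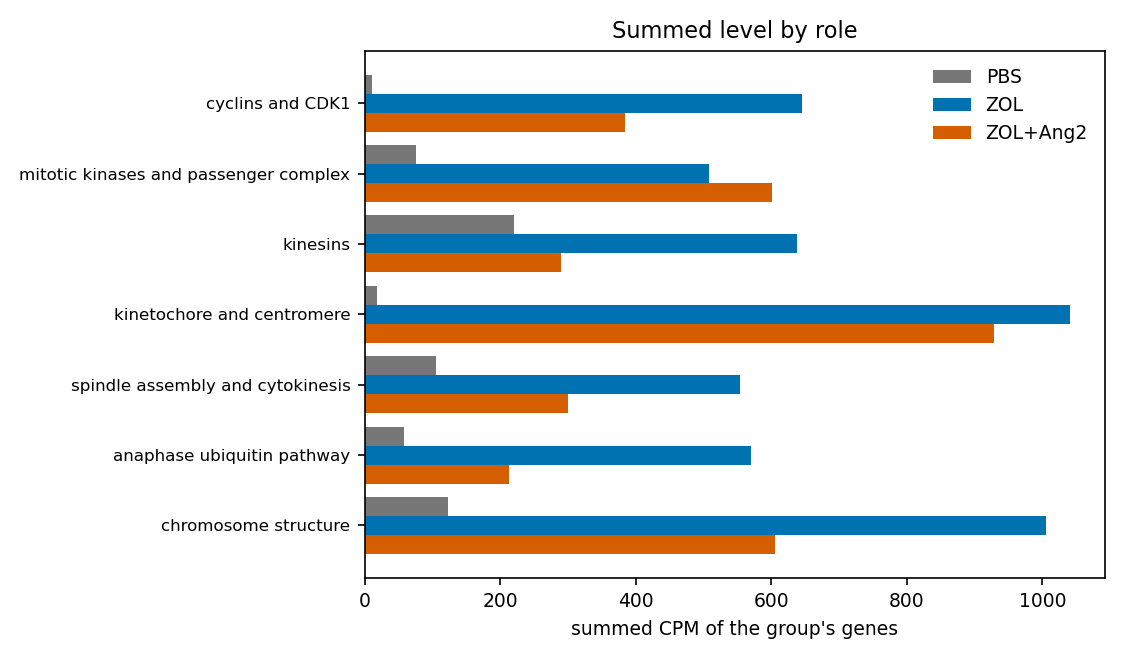
Summed CPM of each role group in PBS, ZOL and ZOL+Ang2, with no error bars since each group is 1 library. Every PBS bar is the shortest of its group, and the ZOL bar is the longest in 6 of 7 groups, the exception being the mitotic kinases and passenger complex at 509 in ZOL and 601 in ZOL+Ang2.

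The kinesins, motors that slide and depolymerise microtubules, had sums of 220, 637 and 290 CPM. Kif11 (Eg5), which pushes spindle poles apart, had a length in the annotation used that did not give whole reads, so its deposited RPKM are given, whose scale differs between libraries. They were 0.741 (PBS), 17.4 (ZOL) and 0.0531 (ZOL+Ang2). With 4819 bases, the length that makes all its values whole, those are 4, 1989 and 3 reads, and ZOL was 370-fold higher than ZOL+Ang2 (127 to 1798). A Kif11 copy, Gm15697, at 90.6% identity over 1691 bases, had 53, 0 and 0 reads, so the Kif11 level in PBS is uncertain. Kif22, a chromosome arm motor, had 1, 1758 and 0 reads and was at least 327-fold lower in ZOL+Ang2 than in ZOL. Kif2c (MCAK), which depolymerises microtubules at kinetochores, had 0, 984 and 0 reads and was at least 183-fold lower. By contrast Kif20a and Kif20b, motors of cytokinesis, kept 87.7 and 55.3 CPM in ZOL+Ang2 against 69.4 and 81.0 in ZOL. The Kif20a values are uncertain, since they were not whole either and no single length made them so. Also, 29.3% of the Kif20a exon bases are shared with Cdc23 on the other strand, which had 442, 547 and 2023 reads. Kif4 (KIF4A), a chromokinesin, had 0, 32.1 and 22.2 CPM. It shares 832 exon bases with Pdzd11 on the other strand, which had 87, 1470 and 1363 reads.

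A pair of kinesins were highest in PBS. Kif15, which supports the bipolar spindle beside Kif11, had 123, 35.4 and 46.9 CPM, 3.48-fold lower in ZOL than in PBS (2.97 to 4.07). Kif23 (MKLP1), of the centralspindlin complex, had 83.4, 48.1 and 69.0 CPM, 1.73-fold lower in ZOL (1.45 to 2.06). Racgap1, the other centralspindlin subunit, had 0, 167 and 89.9 CPM, so only 1 of the 2 partners had reads in PBS. Kif18b, which trims astral microtubules, was the weakest of all, with 0, 6 and 72 reads, 21.5-fold higher in ZOL+Ang2 than in ZOL (9.40 to 60.5).

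The kinetochore and centromere genes had sums close to each other in ZOL and ZOL+Ang2, at 18.3, 1040 and 928 CPM. Zwint, which links the outer kinetochore to the checkpoint, was the most abundant of the group per length within ZOL and within ZOL+Ang2. It had 334 and 294 CPM there and 0 reads in PBS, at least 207-fold lower than in ZOL. Cenpa, the centromeric histone H3 variant, had 2.15, 273 and 231 CPM, and Cenpe, a kinetochore motor, had 5.38, 192 and 202. Both lay near 1-fold between ZOL and ZOL+Ang2. Cenpf, a late cell cycle kinetochore protein, had 9.69, 108 and 173 CPM, 1.60-fold higher in ZOL+Ang2 than in ZOL (1.50 to 1.72). Ndc80 and Nuf2 form 1 microtubule-binding dimer. Ndc80 had 1.08, 81.2 and 27.7 CPM and Nuf2 0, 52.6 and 0, the latter at least 154-fold lower in ZOL+Ang2 than in ZOL. Only 1 partner of the dimer thus had reads in ZOL+Ang2. Ndc80 has copies that took reads of their own. Gm1976 had 239, 0 and 0 reads in PBS, ZOL and ZOL+Ang2, and 2700099C18Rik had 2, 93 and 321. The Ndc80 values are uncertain to that extent in every library.

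In the spindle assembly and cytokinesis group, sums were 105, 553 and 300 CPM. Tpx2, which activates aurora A on the spindle, had 0, 86.3 and 82.8 CPM, and Anln (anillin), the scaffold of the contractile ring, 3.23, 159 and 94.0. Nusap1, a microtubule-bundling protein, ran against the set with 83.4, 42.9 and 12.8 CPM, highest in PBS and 6.53-fold lower in ZOL+Ang2 than in PBS (5.09 to 8.40). Prc1, which bundles the central spindle, had 16.1, 78.3 and 19.0 CPM, 4.11-fold lower in ZOL+Ang2 than in ZOL (3.49 to 4.86). Ect2, the exchange factor that sets the division plane, had 5, 304 and 11 reads, 15.4-fold lower in ZOL+Ang2 than in ZOL (8.51 to 31.3).

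The 3 genes of the anaphase ubiquitin pathway were all lower in ZOL+Ang2 than in ZOL, with sums of 58.1, 571 and 213 CPM. Cdc20, the APC/C activator that launches anaphase, was the most abundant of the 41 per length in ZOL at 91.3 RPKM and had 1.61, 257 and 79.8 CPM, 3.22-fold lower in ZOL+Ang2 than in ZOL (2.97 to 3.50). Ube2c, the ubiquitin-conjugating enzyme of the APC/C, had 54.4, 186 and 65.9 CPM, 2.83-fold lower (2.59 to 3.10). Pttg1, securin, had 2.15, 127 and 67.0 CPM, 1.89-fold lower (1.72 to 2.08). Ube2c had 101 reads in PBS, where Cdc20 had 3 and Pttg1 4, and 592 of its exon bases are shared with Tnnc2 on the other strand.

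The chromosome structure genes summed to 123, 1006 and 605 CPM. Top2a, the topoisomerase that untangles sister chromatids, had 20.4, 348 and 202 CPM, 17.0-fold higher in ZOL than in PBS (12.4 to 24.1). Mki67, which coats mitotic chromosomes and is the usual proliferation marker, had 53.3, 184 and 127 CPM, a smaller difference of 3.46-fold (2.83 to 4.27). From ZOL to ZOL+Ang2 the genes of the condensin core pair went opposite ways, and their levels came closer. Smc4 had 24.2, 320 and 161 CPM and Smc2 5.92, 78.9 and 113. Smc4 was 4.30 and 4.26 times Smc2 per length in PBS and ZOL, and 1.50 times it in ZOL+Ang2. The condensin I subunits Ncapg and Ncaph, with 35.9 and 38.7 CPM in ZOL, had 2.74 CPM and 0 reads in ZOL+Ang2. Ncapg was 13.1-fold lower there than in ZOL (8.72 to 20.6), and Ncaph at least 113-fold lower.

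Median-of-ratios scaling lowered all ZOL against PBS folds alike and carried 2 genes that lay within 2-fold past it: Nusap1 went from 0.514 to 0.281 and Kif23 from 0.577 to 0.315, while Ncapg went from 1.90 to 1.04. The order of the genes also differed between libraries. Spearman's rank correlation of RPKM over the 41 genes was 0.59 between ZOL and ZOL+Ang2 and -0.07 between ZOL and PBS. Over the 10942 genes passing the filter, as 39 of the 41 do, it was 0.69 and -0.11. These are descriptions over genes that share the libraries and their depth. In PBS the reads of the 41 genes also ran with exon length (0.44), in ZOL and ZOL+Ang2 hardly (0.06 and 0.12).

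Related genes were read in 8 further lists, to be held against the shares of all genes, 49.2% higher and 29.4% lower in ZOL against PBS and 16.2% and 24.8% in ZOL+Ang2 against ZOL. Of 43 further spindle and kinetochore genes, 34 passed the filter, and 26 were at least 2-fold higher in ZOL than in PBS and none lower. In ZOL+Ang2 against ZOL 6 were higher and 13 lower. Melk, a kinase of dividing cells, was at 0 reads in both PBS and ZOL+Ang2 and at 75.2 CPM in ZOL, and Trip13, which recycles the checkpoint, had 4.31, 88.0 and 0.342 CPM, while Ckap2l, a spindle protein, had 0, 31.2 and 108. Of 27 S phase replication genes, 25 passed, with 22 higher and none lower in ZOL than in PBS, and 1 higher and 12 lower in ZOL+Ang2 than in ZOL. Pcna, the replication clamp, had 1.61, 220 and 1.60 CPM.

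Of 9 phosphatases, kinases and regulatory proteins that set entry into mitosis, 8 passed. Of these, 7 were higher and none lower in ZOL than in PBS, and 1 higher and 4 lower in ZOL+Ang2 than in ZOL. Cdc25c, a phosphatase that frees CDK1, had 2.69, 78.9 and 0 CPM and Cks1b, a CDK1-binding subunit, 3.23, 429 and 271. Several counts of the lists that follow lie close to the all-gene shares above. The APC/C subunits gave 11 higher and 2 lower of 14, and 3 and 3 in ZOL+Ang2 against ZOL. Cohesin and its regulators gave 7 and 1 of 10, and then 1 and 1. Regulators of mitotic transcription were more mixed, at 5 higher and 3 lower of 11 in ZOL against PBS, and 3 and 5 in ZOL+Ang2 against ZOL. E2f1, a transcription factor of the G1 to S step, had 0, 46.2 and 0 CPM, and Tfdp1, its dimer partner, 1.61, 64.8 and 149. G1 cyclins and kinases gave 4 higher and 2 lower of 7 in ZOL, and none past 2-fold in ZOL+Ang2 against ZOL. Cell cycle inhibitors gave 3 higher and none lower of 10, and 2 and 1.

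**Figure D5:**
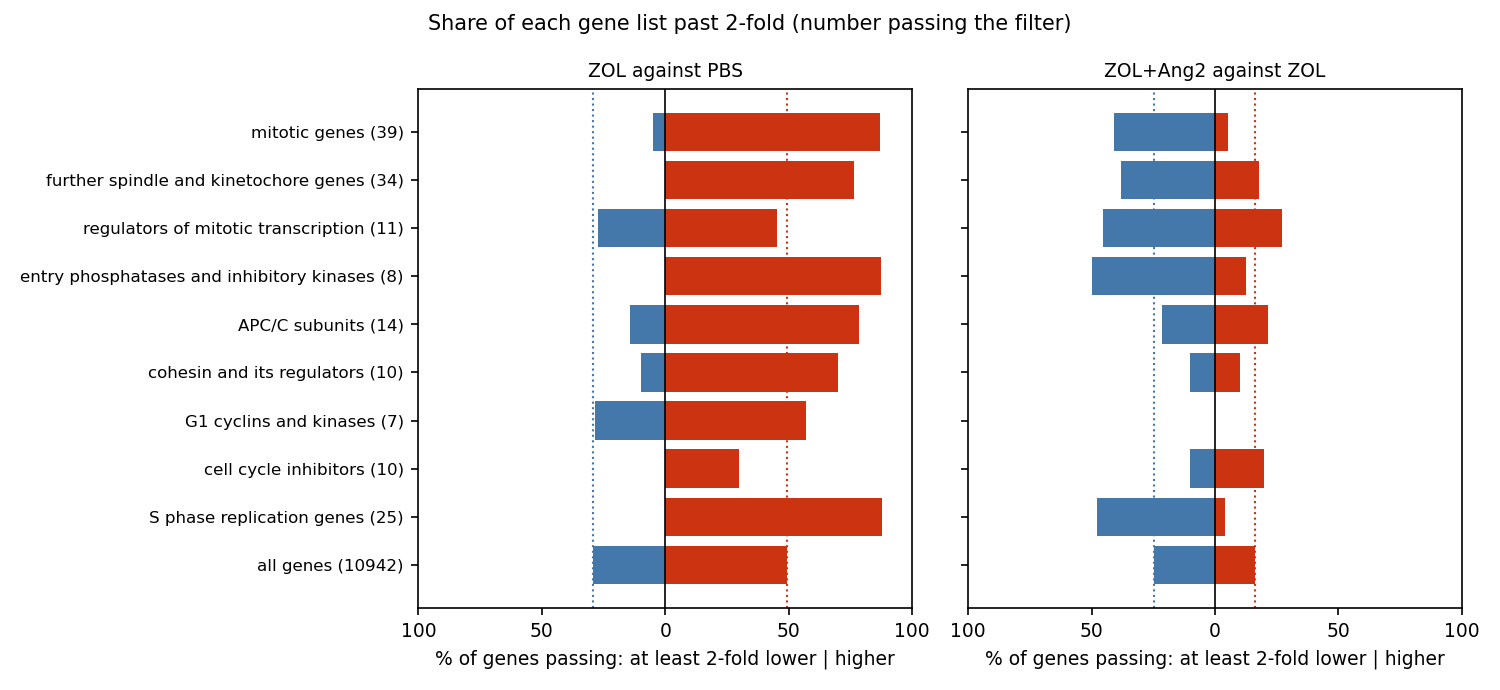
Share (%) of each gene list passing the filter that was at least 2-fold higher (red, right) or lower (blue, left), for ZOL against PBS and for ZOL+Ang2 against ZOL, with the number passing in brackets and the shares of all genes as dotted lines. The mitotic genes, the entry list (labelled entry phosphatases and inhibitory kinases) and the S phase genes have the longest red bars in ZOL against PBS.

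Markers of other cells also differed between the libraries. The 13 epithelial and carcinoma markers reached 691 CPM in sum for PBS, 6260 for ZOL and 6198 for ZOL+Ang2, with 8, 13 and 11 of them at any read. The epithelial sum was lowest in PBS, as the fibroblast sum below also was. A few genes carried that sum, 6 of the 13 giving 97.6% of it in ZOL. Krt8 stood at 165, 2451 and 2057 CPM and Epcam at 60.8, 203 and 370, while Cdh1 was highest in PBS at 165, against 84.8 and 81.3, and Elf3 stood at 49.5, 0.446 and 0. The 12 pan-endothelial markers, all with reads in every library, summed to 1673, 3292 and 1202 CPM, highest in ZOL. Fibroblast markers summed to 350, 976 and 11350 CPM, myeloid ones to 1217, 288 and 2425 and erythroid ones to 193, 11.5 and 25180, all 3 highest in ZOL+Ang2 and the last 2 lowest in ZOL. Lymphocyte markers summed to 292, 0.956 and 0 CPM, with Cd3d at 0 in all 3 libraries. The part of these cells in the mitotic RNA was not tested.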

How the data were processed

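RNA of 3 libraries was analysed, 1 for each treatment, each a pool of 6 mice. The deposited values are RPKM per gene, which the authors made with fastp, HISAT2 2.2.1, featureCounts 2.0.6 and mm10, per the submitters' processing notes; their annotation release is not stated in those notes. Reads were recovered from RPKM times GENCODE M21 exon length, and 96.9%, 96.4% and 96.2% of values above 0 came out whole within 0.01 in PBS, ZOL and ZOL+Ang2. The lengths covered all but 37 of 54532 genes. Of the 41 mitotic genes, 11 share exon bases with another gene model, among them Prc1 (11.1% of its exon bases) and Ncapg (13.4%). Recovered reads were 1.50, 0.701 and 0.785 times the totals that the RPKM imply, so RPKM served to compare genes within a library. Between libraries it is used only for Kif11 and in 1 alternative setting. Amplified reads carry no molecular identifiers, so intervals and floors cover counting error only.

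Scaling to CPM used TMM factors of 1.11, 0.946 and 0.953 (trims of 30% and 5%). Genes averaging 10 CPM or more were compared on log2(CPM + 5), and single genes by ratio of CPM with an exact 95% binomial interval, or, at 0 reads, against 3 reads. The prior of 5 CPM understates differences of low genes. Other scalings, filters, priors and thinned libraries were tried. Computations used Python 3.11.15, NumPy 2.4.6, pandas 2.3.3 and SciPy 1.17.1 and were tested on simulated data. Values are given in full for the most abundant gene of each role group and the 6 highest and 6 lowest in each comparison; any of the 41 may be named. The genes and lists were chosen with earlier results of these data known.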

Additional observations from a re-analysis of the deposited data

How the results depend on the processing

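Each group is 1 library, so no leave-one-out value could be had. No paired analysis was possible because each group is 1 library. Of the values that answer a comparison, 120 of 140 under other settings were not counted as moved, though some of them shifted clearly. In ZOL+Ang2 against ZOL the median was -0.21 with a filter of 50 CPM, against -0.77. In ZOL+Ang2 against PBS it was 2.45, but 3.25 and 1.37 with a prior of 1 or 20 CPM and 1.56 with RPKM as deposited. In ZOL against PBS, genes at least 2-fold lower numbered 4 instead of 2 under median-of-ratios scaling, RPKM as deposited and thinned libraries. The median was 2.83 with RPKM as deposited, and 5.24 and 2.25 with a prior of 1 or 20 CPM. Less the median of all genes it was 3.37 under median-of-ratios scaling, 3.40 with a filter of 1 CPM, 4.13 and 1.66 with a prior of 1 or 20 CPM, and 3.29 thinned. A filter of 50 CPM leaves 22 of the genes to compare, and so in ZOL against PBS gave 21 past 2-fold, 19 of them higher; in ZOL+Ang2 against ZOL it gave 4, with 1 higher, 3 lower and a median of -0.14 relative to all genes, against -0.75; and in ZOL+Ang2 against PBS 18, with 1 lower. A prior of 20 CPM gave 2 lower there. The ratio of Zwint in ZOL+Ang2 to ZOL was 0.88 and turned to 1.01 under median-of-ratios scaling. That scaling raised all ZOL+Ang2 to ZOL ratios alike, that of Cdk1 from 0.676 to 0.775. Higher genes made 62.6% of all genes past 2-fold in ZOL against PBS, 49.0% with RPKM as deposited and 50.7% thinned. Scaling and filtering without PBS, chosen after seeing the data, left 18 genes past 2-fold in ZOL+Ang2 against ZOL, 16 of them lower. In PBS 1 read stands for 0.538 CPM, so a gene at 0 reads there may have a level of up to 1.61 CPM.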
